A study of Caenorhabditis elegans with 15 samples.

Results

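The lipl genes of Caenorhabditis elegans encode a family of lipases homologous to mammalian lysosomal acid lipase. All 8 genes named lipl-1 to lipl-8 in the count tables were taken, out of 46904 gene identifiers. Whole adult worms, grown on solid medium, were sequenced as mRNA in 5 genotypes with 3 libraries each. The fbf-1 3xlnc worms carried mutations in fbf-1 and in the long intervening non-coding RNA genes linc-4, linc-29 and linc-7, and the fbf-1 worms carried the fbf-1 mutation alone. The fbf-2 worms were mutant in fbf-2, the 3xlnc worms in linc-4, linc-29 and linc-7, and WT was the N2 wild type. FBF-1 and FBF-2 are closely related RNA-binding proteins of the PUF family that act on mRNAs in the germline. The labels give no alleles and no origin of the 3 libraries of a genotype. If these were drawn from 1 culture, each p-value reflects technical spread alone. As the RNA type, polyA RNA is named for fbf-1 3xlnc and fbf-1, and total RNA for fbf-2, 3xlnc and WT. Wherever levels are set side by side across these RNA labels, genotype and label cannot be told apart.

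Lysosomal acid lipases cleave triglycerides and cholesteryl esters that reach the lysosome, an acidic organelle, by autophagy or endocytosis, and they release free fatty acids. In the worm, fat is stored mainly in the intestine, where several lipl genes are expressed, and some of them are induced when food is withdrawn. The transcription factor HLH-30, the worm homologue of mammalian TFEB, activates lipl genes during fasting, and the Max-like factor MXL-3 represses them in fed worms. LIPL-4 is known from long-lived worms without a germline, where it acts with the fatty acid binding protein LBP-8 and the nuclear receptors NHR-49 and NHR-80.

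Total counts per library ran from 9068700 to 38453738, and the shallowest was WT replicate 1, which also had the highest share of counts on ribosomal RNA genes, 4.62% against 0.516% in WT replicate 2 and 0.976% in WT replicate 3. Each targeted gene was lowest where its label puts the mutation, with 0 counts of linc-4, linc-7 and linc-29 in all fbf-1 3xlnc and 3xlnc libraries. Levels of fbf-1 were 8.25 to 8.57 CPM (counts scaled to a library total of 1000000) in fbf-1 3xlnc and 7.80 to 8.38 CPM in fbf-1, against 35.4 to 39.8 CPM in WT, and fbf-2 was at 6.10 to 7.30 CPM in fbf-2, against 26.0 to 32.1 CPM in WT. The intestine was present in every genotype by its markers. Without the abundant yolk protein genes, 16 intestinal markers summed to 1586 to 1862 CPM in fbf-1 3xlnc, 1547 to 1612 CPM in fbf-1, 1725 to 1818 CPM in fbf-2, 2395 to 2591 CPM in 3xlnc and 1907 to 2030 CPM in WT. No marker of the intestine or sperm lists was at 0 in all libraries. In bulk worms, fewer cells of a type and less RNA per cell cannot be told apart. Across the polyA RNA and total RNA labels, these levels and sums cannot separate genotype from label either.

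On build WBcel235, 7 of the 8 lipl genes (87.5%) lie on chromosome V, which holds 25.1% of the 19901 protein-coding genes in the tables. The coding regions of 7 members give proteins of 401 to 411 residues, and lipl-6, the longest, gives 591 residues over 10 exons. In chromosome order on V these are lipl-5 (385746 to 387740, plus strand), lipl-3 (521595 to 524218, minus strand), lipl-4 (6550171 to 6552186, plus strand), lipl-6 (6931475 to 6934312, minus strand), lipl-2 (9791567 to 9793241, plus strand), lipl-1 (12919986 to 12921692, plus strand) and lipl-8 (14745684 to 14748708, minus strand). The exception is lipl-7, on chromosome IV (10239278 to 10241823, minus strand), 102 bases from ech-8. The exons of lipl-3 overlap those of srw-107 on the same strand, and those of lipl-4 overlap a tRNA gene and the non-coding K04A8.15 on the opposite strand, so their few reads may belong to either gene. No member was flagged as germline-enriched or as bound by FBF-2 in the authors' deposited table.

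Per kilobase of exon, lipl-5 was far above the rest of the family. Over the 15 libraries it averaged 194 CPM per kilobase, against 13.4 for lipl-7, 9.65 for lipl-1 and 7.05 for lipl-2. The order of these last 3 was not the same in every genotype. In fbf-1 3xlnc and fbf-2, lipl-2 (5.24 and 6.17 CPM per kilobase) was above lipl-1 (3.59 and 3.41), and in WT lipl-1 (19.3) was above lipl-7 (14.2). The remaining members were much lower, at 0.518 CPM per kilobase for lipl-3, 0.230 for lipl-6 and 0.106 for lipl-4. The last of these, lipl-4, had 0 to 11 counts per library and 62 counts in all. For lipl-8 there were 0 counts in all 15 libraries, which allows a level of up to 0.00844 CPM (3 counts over all libraries, counting error only). Summed over the family, the level was 299 ± 6.15 CPM in fbf-1 3xlnc, 225 ± 16.4 CPM in fbf-1, 190 ± 2.12 CPM in fbf-2, 457 ± 20.2 CPM in 3xlnc and 258 ± 18.6 CPM in WT (SD, n = 3). Since lipl-5 made up 76.6% to 91.1% of the lipl counts of a library, this sum is close to the level of lipl-5. Between fbf-1 3xlnc or fbf-1 and the other genotypes, the RNA label differs too, so differences in the sum cannot be put down to genotype.

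**Figure D1:**
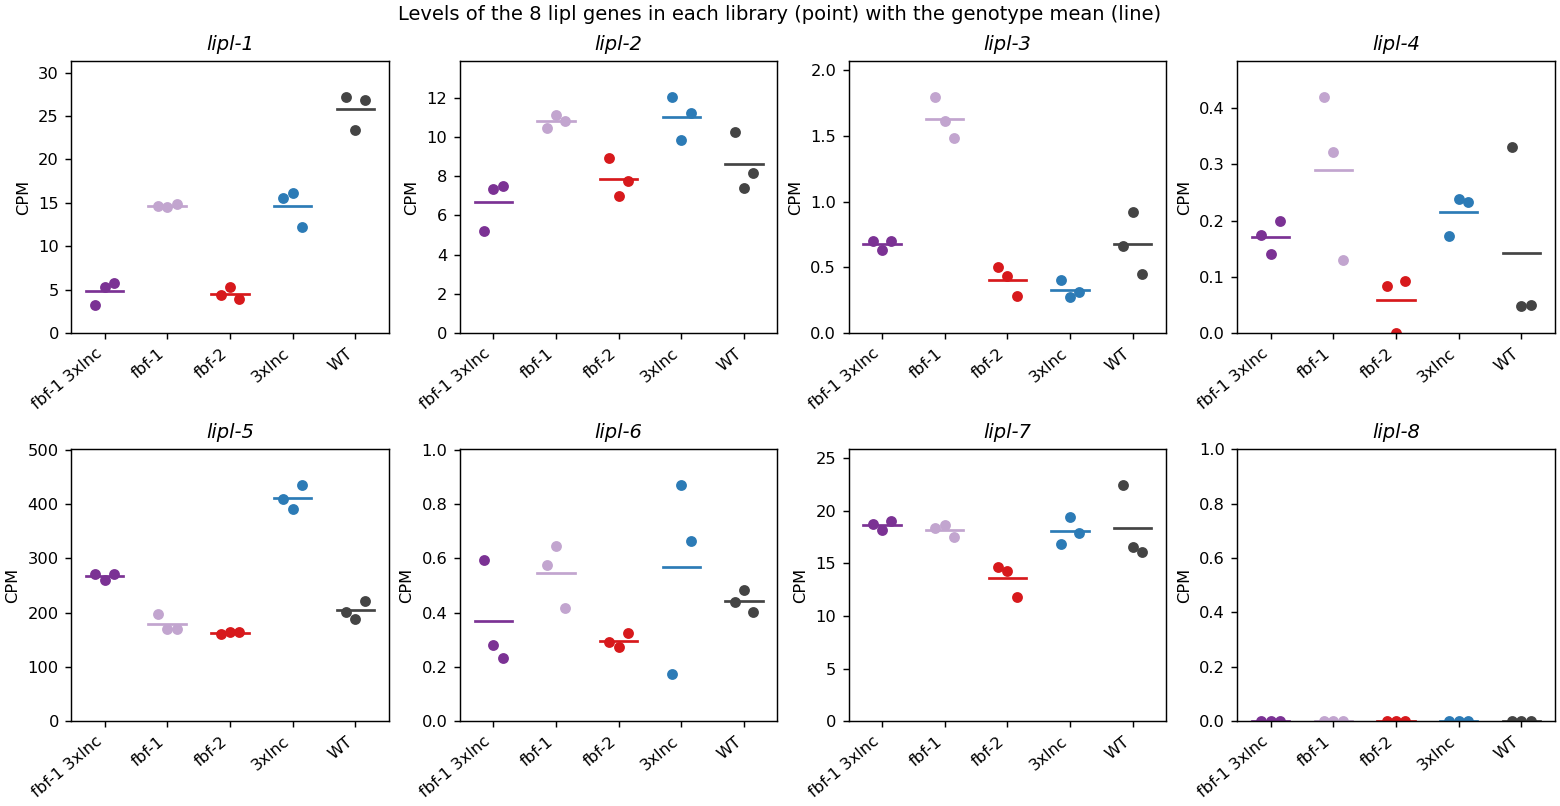
Level of each lipl gene in CPM (y axis, from 0, scaled to each gene) in the 15 libraries, by genotype (x axis); points are libraries and lines are means of 3. The 3 highest lipl-5 libraries are those of 3xlnc and the 3 highest lipl-1 libraries those of WT, while lipl-8 is at 0 throughout. Libraries of fbf-1 3xlnc and fbf-1 differ from the others in RNA label too.

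The first comparison was of fbf-2 worms with WT. Of the lipl genes tested, lipl-1 fell most, to 4.38, 5.34 and 3.94 CPM in fbf-2 worms, against 27.2, 23.4 and 26.8 CPM in WT. Every fbf-2 library was far below every WT library. The log2 fold change was -2.63 (SE 0.140, edgeR's quasi-likelihood test, adjusted p = 4.27e-05), which is 6.21-fold lower in fbf-2, and lipl-1 ranked 7 of the 13401 genes tested by p. The fasting-responsive lipl-5 fell less, to 160, 165 and 164 CPM in fbf-2 worms, against 201, 189 and 222 CPM in WT (log2 -0.45, SE 0.103, adjusted p = 0.0214). These groups did not overlap. For lipl-7 the levels were 14.6, 14.3 and 11.8 CPM in fbf-2 and 22.5, 16.6 and 16.06 CPM in WT (log2 -0.55, SE 0.137, adjusted p = 0.0301). All fbf-2 libraries were below all WT libraries, but WT replicate 1 stood above the other WT libraries.

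In the same comparison lipl-2 did not pass the test, at 8.94, 6.97 and 7.74 CPM in fbf-2 and 10.3, 7.41 and 8.18 CPM in WT (log2 -0.24, SE 0.155, adjusted p = 0.318), and its groups overlapped. With 6 to 19 counts per library, lipl-3 had 0.405 ± 0.115 CPM in fbf-2 and 0.678 ± 0.234 CPM in WT (SD, n = 3; log2 -0.89, adjusted p = 0.175). The low genes lipl-4, lipl-6 and lipl-8 did not pass the filter on low counts and were not tested. In all, 5 of 8 members were tested, 3 fell and 0 rose, where 10.1% of all genes tested were lower and 5.51% higher in fbf-2 at an adjusted p under 0.05. With upper-quartile in place of TMM scaling the split over all genes was 449 higher and 1682 lower, against 738 and 1357, and the same 3 lipl genes fell. With the replicate number as a block 2073 genes were higher and 2340 lower, and the same 3 lipl genes fell. In that blocked fit the adjusted p was 1.66e-07 for lipl-1, 0.00147 for lipl-5 and 0.00356 for lipl-7 (edgeR's quasi-likelihood test). Libraries were left out of the fit without a block only. The call of lipl-1 held without any 1 of the 6 libraries. The calls of lipl-5 and lipl-7 were lost without fbf-2 replicate 1, 2 or 3 and without WT replicate 2 or 3 (adjusted p 0.0527 to 0.103 for lipl-5 and 0.0703 to 0.110 for lipl-7), and held without WT replicate 1.

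Of 29 lysosome genes tested beside the family, 13 fell and 0 rose in fbf-2 worms, with a median log2 fold change of -0.50, against -0.04 over all genes tested. They included asm-3, an acid sphingomyelinase, at 26.3 ± 1.67 CPM in fbf-2 and 64.8 ± 6.80 CPM in WT (log2 -1.42, adjusted p = 0.000147). The cathepsin Z gene cpz-1 fell to 190 ± 8.23 CPM in fbf-2, against 356 ± 11.6 CPM in WT (log2 -1.04), and the lysosomal deoxyribonuclease gene nuc-1 to 71.8 ± 5.73 CPM in fbf-2, against 114 ± 11.7 CPM in WT (log2 -0.79). These 3 calls held without any 1 library, and the list's count ranged from 6 (without WT replicate 3) to 17 (without WT replicate 1). With the replicate block 14 lysosome genes fell and 1 rose. Of 21 genes of the v-ATPase, the proton pump that acidifies the lysosome, 3 fell and 0 rose, with 12 changed without WT replicate 1, 0 without any 1 of the other 5 libraries and 6 with the replicate block.

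Among 24 regulators tested in fbf-2 worms, 5 fell and 1 rose. The hlh-30 gene was at 38.6 ± 3.53 CPM in fbf-2 and 64.04 ± 13.5 CPM in WT (log2 -0.88, SE 0.190, adjusted p = 0.0186), a call that was lost without fbf-2 replicate 1 or 2 or WT replicate 2 or 3. The FoxA factor gene pha-4 fell to 5.73 ± 0.660 CPM in fbf-2, against 13.3 ± 0.541 CPM in WT (log2 -1.35, adjusted p = 0.000808), in every leave-out. The gene mxl-3, named after its values were seen, was at 13.01 ± 2.15 CPM in fbf-2 and 13.4 ± 1.95 CPM in WT (log2 -0.17, adjusted p = 0.471). The regulators' count was 13 without WT replicate 1, 1 without fbf-2 replicate 1 or 2 or WT replicate 3, and 9 with the replicate block.

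Of 15 fasting response genes tested in fbf-2 worms, 5 rose and 6 fell, so the list moved in both directions. The stearoyl-CoA desaturase gene fat-6 rose to 404 ± 21.6 CPM in fbf-2, against 164 ± 6.36 CPM in WT (log2 1.17), and the glyoxylate cycle gene icl-1 to 177 ± 7.73 CPM in fbf-2, against 82.6 ± 6.27 CPM in WT (log2 0.97). The enoyl-CoA hydratase family gene ech-9 fell to 0.327 ± 0.191 CPM in fbf-2, against 4.65 ± 0.638 CPM in WT (log2 -3.99). In fbf-2 ech-9 was near the floor, and it passed the count filter through the WT libraries, so the size of its fold change is uncertain. In the cytosolic lipolysis and lipid droplet list 1 rose and 3 fell of 12, in the autophagy list 2 rose and 1 fell of 26 (10 changed with the replicate block), and in the lips list of other lipase-like genes 0 rose and 1 fell of 8, namely lips-14 (log2 -2.14). Over all genes tested, 10.1% were lower and 5.51% higher in fbf-2. Whether a list departed from these shares was not tested. Without WT replicate 3 the changed genes numbered 1 in the lipid droplet list, 1 in the autophagy list and 7 in the fasting response list, and without WT replicate 1 they numbered 4, 14 and 12. Of 18 intestinal markers, 6 fell and 1 rose (3 changed without fbf-2 replicate 2, 12 without WT replicate 1). Of 16 sperm markers 9 fell and 0 rose (3 changed without fbf-2 replicate 3 or WT replicate 3), and all 18 in the tables summed to 59.7 to 92.1 CPM in fbf-2, against 129 to 184 CPM in WT. Of the other markers, 2 of 12 for hypodermis, 1 of 12 for muscle, 1 of 15 for germline, 1 of 9 for embryo and 0 of 14 for neurons fell and 0 rose, and without WT replicate 1 the changed ones numbered 5, 9, 7, 2 and 4. With the replicate block 3 fell and 1 rose for hypodermis, and 1 fell and 3 rose for germline. In that fit 6 fell for muscle, 4 for embryo, 1 for neurons and 10 for sperm, and 0 rose. For intestine 8 fell and 2 rose with the block. The part of these marker changes in the lipl values was not tested.

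The effect of the 3 linc mutations was compared in otherwise wild-type worms. There lipl-5 rose, to 408, 391 and 436 CPM in 3xlnc worms, against 201, 189 and 222 CPM in WT. The lowest 3xlnc library was well above the highest WT library, and the log2 fold change was 0.98 (SE 0.104, edgeR's quasi-likelihood test, adjusted p = 0.00117), or 1.97-fold. The gene lipl-1 fell in the same worms, to 15.5, 16.13 and 12.3 CPM in 3xlnc, against 27.2, 23.4 and 26.8 CPM in WT (log2 -0.85, SE 0.138, adjusted p = 0.00667). Both calls held without any 1 of the 6 libraries, and the groups did not overlap for either gene.

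The other members tested in 3xlnc worms did not pass. For lipl-2 the levels were 12.1, 9.83 and 11.2 CPM in 3xlnc and 10.3, 7.41 and 8.18 CPM in WT (log2 0.34, SE 0.157, adjusted p = 0.181), with overlap through WT replicate 1, and without that library the adjusted p was 0.0461. For lipl-7 they were 16.9, 19.5 and 17.9 CPM in 3xlnc, within the range of 16.06 to 22.5 CPM in WT (log2 -0.05, SE 0.138, adjusted p = 0.843). The sign of this small lipl-7 difference turned under upper-quartile scaling, so no direction is given. Untested for low counts were lipl-3, with 7 or 8 counts per 3xlnc library, lipl-4, lipl-6 and lipl-8. Thus 1 of 4 tested members rose and 1 fell, where 9.41% of 13861 genes were higher and 2.11% lower in 3xlnc. Under upper-quartile scaling the split over all genes was 1765 higher and 145 lower, against 1304 and 292, with the same 2 lipl genes called. The fbf-2 and 3xlnc comparisons used the same WT libraries, as did the comparison of fbf-1 with WT and the difference between backgrounds given further on.

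Of 29 lysosome genes tested in 3xlnc worms, 6 rose and 1 fell, with a median log2 fold change of 0.02, against -0.02 over all genes. The cathepsin B-like gene cpr-4 rose to 456 ± 24.4 CPM in 3xlnc, against 151 ± 4.73 CPM in WT (log2 1.55, adjusted p = 0.000102), and asm-3 fell to 43.0 ± 1.28 CPM in 3xlnc, against 64.8 ± 6.80 CPM in WT (log2 -0.62, adjusted p = 0.00482). Both held without any 1 library, while the list's count ranged from 2 (without 3xlnc replicate 3) to 11 (without WT replicate 1). In the lips list 3 rose and 0 fell of 9, led by lips-6 at 1.91 ± 0.255 CPM in 3xlnc and 0.102 ± 0.0481 CPM in WT (log2 4.11, adjusted p = 0.00107). In WT lips-6 was near the floor, and it passed the count filter through the 3xlnc libraries alone. The size of its fold change is therefore uncertain. In the fasting response list 2 rose and 2 fell of 16, with acdh-2, an acyl-CoA dehydrogenase gene, lowest (log2 -1.52) and the acyl-CoA synthetase gene acs-2 highest (log2 2.03) among those called, and 7 changed without WT replicate 1. In the v-ATPase list 1 rose and 0 fell of 21, in the autophagy list 0 rose and 1 fell of 26, and in the cytosolic lipolysis and lipid droplet list 1 rose and 1 fell of 12. Over all genes tested, 9.41% were higher and 2.11% lower in 3xlnc. Whether a list departed from these shares was not tested. Of 24 regulators 0 rose and 2 fell, and hlh-30 was at 65.8 ± 1.72 CPM in 3xlnc and 64.04 ± 13.5 CPM in WT (adjusted p = 0.956). Of 16 sperm markers 13 rose and 0 fell, and of 18 intestinal markers 4 rose and 1 fell. The sperm markers summed to 249 to 343 CPM in 3xlnc, against 129 to 184 CPM in WT. Without WT replicate 3 the changed markers numbered 4 for sperm and 0 for intestine, and without WT replicate 1 they numbered 15 and 9. Of the other markers, 4 of 12 for muscle and 3 of 12 for hypodermis rose, 4 of 10 for embryo fell, and 0 changed of 15 for germline and of 14 for neurons. Muscle markers summed to 13030 to 13970 CPM in 3xlnc, against 7642 to 10560 CPM in WT. Without WT replicate 1 the changed markers numbered 10 for muscle, 8 for hypodermis, 4 for embryo, 13 for germline and 5 for neurons, and without 3xlnc replicate 1 they numbered 1, 1, 0, 0 and 0. Without 3xlnc replicate 1 or 3 or WT replicate 3 the changed genes numbered 1 in the lips, 0 in the autophagy, 0 in the lipid droplet, 0 in the v-ATPase and 0 in the regulators list, and without WT replicate 1 they numbered 5, 9, 5, 3 and 13. The part of the markers in the lipl values was not tested.

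**Figure D2:**
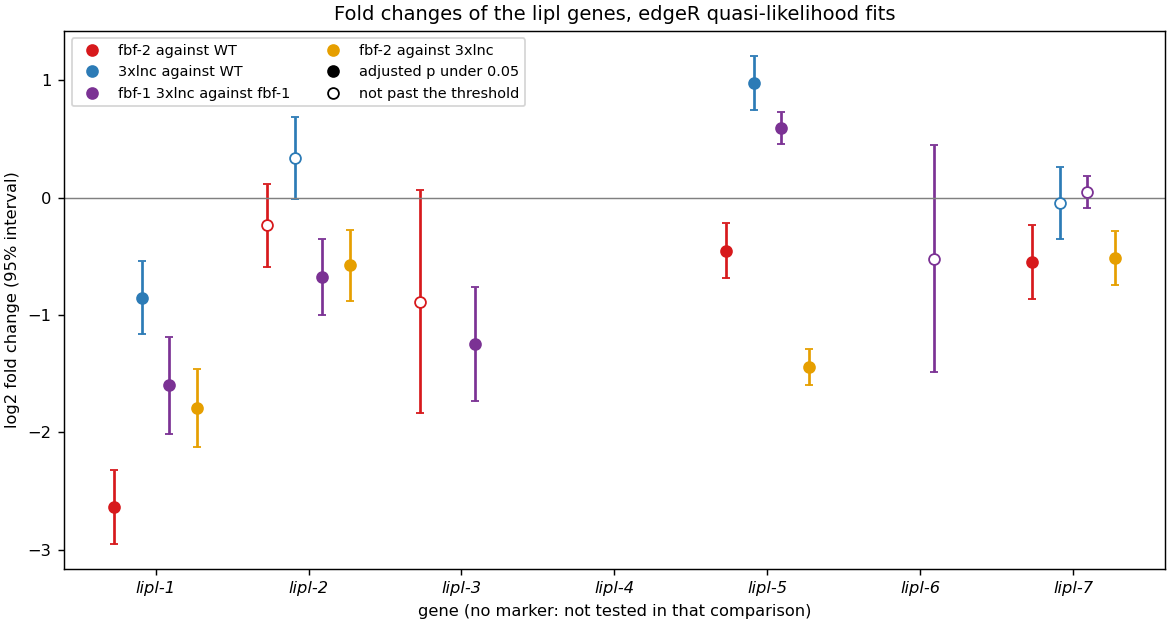
Log2 fold change (y axis) of each lipl gene (x axis) with its 95% interval in 4 comparisons, from edgeR quasi-likelihood fits; filled points passed an adjusted p of 0.05 and open points did not. The lipl-1 points lie below 0 in all 4, and the lipl-5 points lie above 0 in both comparisons of linc mutants with their controls and below 0 in both comparisons of fbf-2.

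In fbf-1 mutant worms, the 3 linc mutations were compared with fbf-1 alone, and 4 of 6 lipl genes tested changed. The lipl-1 gene fell, to 3.25, 5.34 and 5.80 CPM in fbf-1 3xlnc worms, against 14.7, 14.5 and 14.9 CPM in fbf-1. The groups were far apart (log2 -1.60, SE 0.183, edgeR's quasi-likelihood test, adjusted p = 0.000611), a 3.03-fold lower level in fbf-1 3xlnc. The lipl-5 gene rose, to 272, 260 and 271 CPM in fbf-1 3xlnc, against 198, 169 and 170 CPM in fbf-1 (log2 0.59, SE 0.0596, adjusted p = 0.000283). Neither gene's groups overlapped, and both calls held without any 1 library.

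Both lipl-2 and lipl-3 fell as well. For lipl-2 the levels were 5.21, 7.34 and 7.53 CPM in fbf-1 3xlnc and 10.5, 11.1 and 10.8 CPM in fbf-1 (log2 -0.68, SE 0.143, adjusted p = 0.0137), and for lipl-3 they were 0.700, 0.632 and 0.696 CPM in fbf-1 3xlnc and 1.80, 1.61 and 1.48 CPM in fbf-1 (log2 -1.25, SE 0.215, adjusted p = 0.00567). Neither pair of groups overlapped. The lipl-3 values rest on 18 to 21 counts per fbf-1 3xlnc library and 35 to 57 per fbf-1 library, and that call held in every leave-out, while the lipl-2 call was lost without fbf-1 replicate 1 (adjusted p = 0.0505) or 3 (adjusted p = 0.0555). For lipl-7 the levels were 18.6 ± 0.427 CPM in fbf-1 3xlnc and 18.2 ± 0.570 CPM in fbf-1 (SD, n = 3; log2 0.05, 95% interval -0.08 to 0.18, adjusted p = 0.593). The values of lipl-6, on 7 to 17 counts per library, overlapped (log2 -0.52, SE 0.426, adjusted p = 0.428). In all, 3 of 6 tested members fell and 1 rose, where 8.49% of 14104 genes were lower and 9.43% higher in fbf-1 3xlnc.

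Of 29 lysosome genes tested in this background, 5 rose and 5 fell, with a median log2 fold change of 0.03, against 0.00 over all genes. The asm-3 gene fell to 23.1 ± 4.92 CPM in fbf-1 3xlnc, against 75.7 ± 4.04 CPM in fbf-1 (log2 -1.70, adjusted p = 6.07e-05). The glucocerebrosidase-family gene gba-4 rose to 68.0 ± 2.02 CPM in fbf-1 3xlnc, against 33.6 ± 3.44 CPM in fbf-1 (log2 1.04), and ctsa-1, a cathepsin A homologue, to 20.6 ± 0.658 CPM in fbf-1 3xlnc, against 13.1 ± 1.04 CPM in fbf-1 (log2 0.67). These 3 held without any 1 library, while the list's count fell to 6 without fbf-1 replicate 1 or 2. Of 21 v-ATPase genes 12 rose and 0 fell, by small amounts such as log2 0.38 for vha-3 and 0.31 for vha-6, and 4 (without fbf-1 replicate 1) to 12 rose when 1 library was left out.

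Of 17 fasting response genes in fbf-1 3xlnc, 7 fell and 2 rose. The fatty acid desaturase gene fat-5 fell to 20.1 ± 3.17 CPM in fbf-1 3xlnc, against 60.6 ± 4.27 CPM in fbf-1 (log2 -1.58), and fat-6 to 184 ± 12.05 CPM in fbf-1 3xlnc, against 337 ± 11.1 CPM in fbf-1 (log2 -0.86). The gene of LBP-8, the lysosomal lipid chaperone, was at 0.654 ± 0.0744 CPM in fbf-1 3xlnc and 1.36 ± 0.179 CPM in fbf-1 (log2 -1.03, adjusted p = 0.0194), a call lost in 4 of 6 leave-outs, namely fbf-1 3xlnc replicate 3 and each fbf-1 library. Of 25 regulators 2 rose and 2 fell, and hlh-30 was at 65.5 ± 6.27 CPM in fbf-1 3xlnc and 60.1 ± 0.834 CPM in fbf-1 (adjusted p = 0.147). In the autophagy list 3 rose and 4 fell of 26, in the cytosolic lipolysis and lipid droplet list 1 rose and 1 fell of 12, and in the lips list 1 rose and 0 fell of 9. Over all genes tested, 9.43% were higher and 8.49% lower in fbf-1 3xlnc, so small counts in a list are near that share. Without fbf-1 3xlnc replicate 3 the autophagy list held 2 changed genes and the regulators 2, and without fbf-1 replicate 1 the fasting response list held 5. Without fbf-1 3xlnc replicate 1 the lips and lipid droplet lists held 3 each. Of 17 sperm markers 12 rose and 0 fell (1 without fbf-1 replicate 3), and their summed level was 147 to 346 CPM in fbf-1 3xlnc, against 69.4 to 114 CPM in fbf-1. Of 18 intestinal markers 6 rose and 4 fell. Of the other markers, 2 rose and 0 fell of 12 for muscle, 2 rose and 1 fell of 14 for neurons, 1 rose and 0 fell of 10 for embryo, 0 rose and 1 fell of 12 for hypodermis, and 0 rose and 2 fell of 15 for germline. Without fbf-1 3xlnc replicate 1 the changed ones numbered 4, 2, 2, 7 and 2, and without fbf-1 replicate 1 they numbered 1, 0, 0, 1 and 1. The part of these in the lipl values was not tested.

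**Figure D3:**
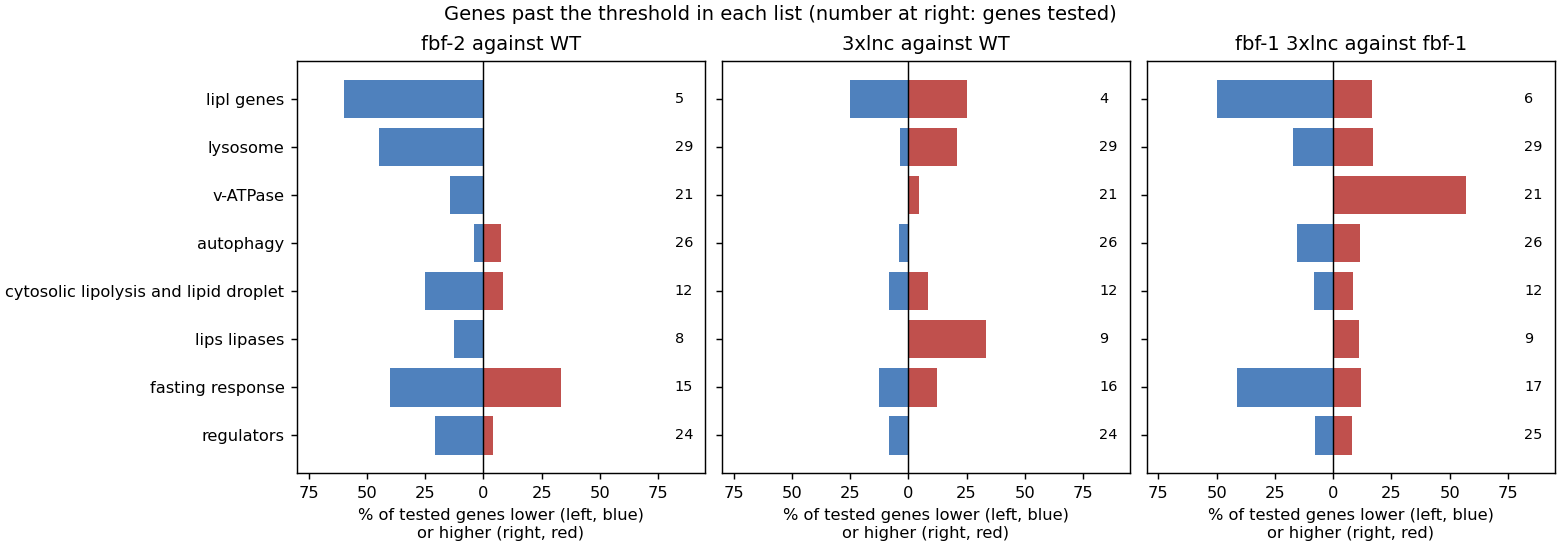
Percent of tested genes that passed the threshold as lower (left of 0, blue) or higher (right of 0, red) for the lipl genes and 7 other lists (rows) in 3 comparisons (panels); the number at the right of each row is the number of genes tested. In fbf-2 worms the lysosome bar lies to the left only (13 of 29 lower), and in fbf-1 3xlnc worms the v-ATPase bar lies to the right only (12 of 21 higher). Over all genes tested, 10.1% were lower and 5.51% higher in fbf-2, and 2.11% lower and 9.41% higher in 3xlnc. In fbf-1 3xlnc these shares were 8.49% lower and 9.43% higher.

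The linc effect was set against the background it was measured in, as the difference between the effect in fbf-1 worms and the effect in WT worms over 12 libraries. Each effect was formed within libraries of 1 RNA label, polyA RNA for fbf-1 3xlnc and fbf-1 and total RNA for 3xlnc and WT, so the background and that label cannot be told apart. The difference passed the test for lipl-2, at -1.00 on the log2 scale (SE 0.220, edgeR's quasi-likelihood test, adjusted p = 0.0151). Its 2 effects had opposite signs, -0.68 in fbf-1 worms and 0.34 in WT worms, and the second did not itself pass. The difference held without any 1 of the 12 libraries, with an adjusted p of 0.00320 to 0.0473.

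For lipl-1 the difference was -0.73 (SE 0.246, adjusted p = 0.0994), and for lipl-5 it was -0.37 (SE 0.123, adjusted p = 0.0912), so neither passed. These 2 were near the threshold, and some other settings placed 1 or both past it, and both passed without WT replicate 1 (adjusted p = 0.0499 for lipl-1 and 0.0335 for lipl-5). The 95% intervals, -1.26 to -0.20 for lipl-1 and -0.63 to -0.11 for lipl-5, did not include 0 before adjustment. The differences of lipl-3 (-0.12), lipl-6 (-0.87) and lipl-7 (0.10) had adjusted p-values of 0.515 to 0.943. Of 6 tested members 1 was lower and 0 higher, where 3.66% of 14772 genes had a lower and 2.54% a higher linc effect in fbf-1 worms.

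Among genes of the other lists, the difference was also negative for asm-3 (-1.06, adjusted p = 0.00354), fat-6 (-1.55) and cpr-4 (-1.47, adjusted p = 2.11e-05), and it was positive for acdh-2 (1.73). In the lysosome list 1 was higher and 4 were lower of 29, and in the fasting response list 2 were higher and 6 lower of 17. Without fbf-1 3xlnc replicate 3 the lists held 3 and 5 such genes, without fbf-1 replicate 2 or 3xlnc replicate 3 they held 5 each, and without WT replicate 1 they held 8 and 9. Among markers, 4 of 10 for embryo were higher, 3 of 12 for hypodermis and 1 of 12 for muscle were lower, and 2 were higher and 1 lower of 18 for intestine; their part in the lipl values was not tested. The fat-6 gene had opposite effects, with 3xlnc above WT (log2 0.71, lost without WT replicate 3) and fbf-1 3xlnc below fbf-1 alone (log2 -0.86).

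**Figure D4:**
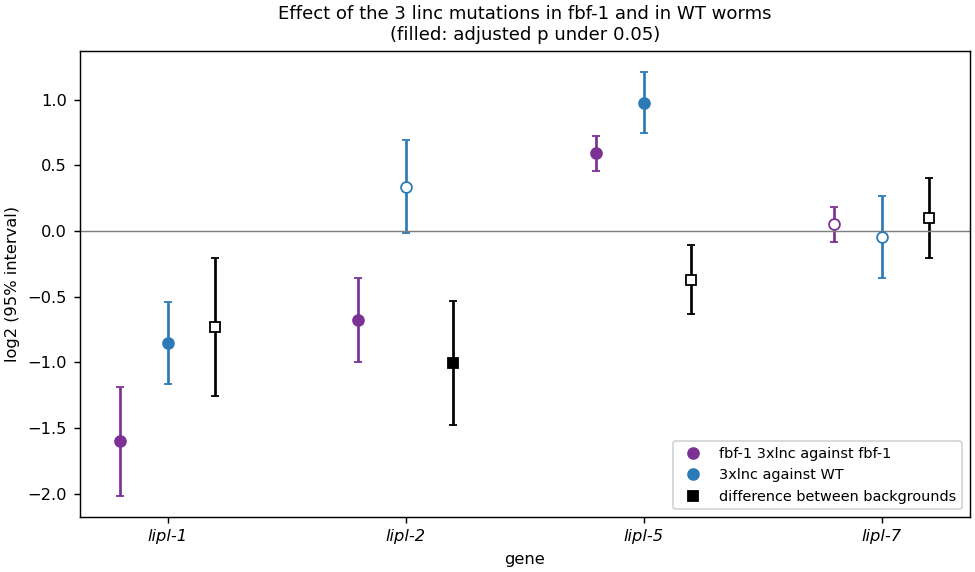
Effect of the 3 linc mutations (log2, y axis, with 95% interval) on 4 lipl genes (x axis) in fbf-1 worms and in WT worms (circles), and the difference between the 2 effects (squares); filled symbols passed an adjusted p of 0.05. The square of lipl-2, at -1.00, is the filled one.

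The fbf-2 and 3xlnc mutants were also compared directly, since both were set against the same WT libraries above. All 4 members tested were lower in fbf-2 than in 3xlnc. The difference was -1.79 for lipl-1 (log2, SE 0.154, edgeR's quasi-likelihood test, adjusted p = 2.83e-06), -1.44 for lipl-5 (SE 0.0706, adjusted p = 5.3e-08), -0.58 for lipl-2 (SE 0.137, adjusted p = 0.00303) and -0.52 for lipl-7 (SE 0.107, adjusted p = 0.0012). For each of these 4 genes every fbf-2 library was below every 3xlnc library, and each call held without any 1 library. Of 14045 genes 34.2% were lower and 26.6% higher in fbf-2, so calls were common in this comparison. Upper-quartile scaling moved the median of all genes to -0.25 on the log2 scale, against -0.10 with TMM, and turned the split to 2500 higher and 5854 lower, against 3732 and 4802. Less the median of all genes, the TMM differences were -1.69 for lipl-1, -1.34 for lipl-5, -0.47 for lipl-2 and -0.41 for lipl-7, and the same 4 genes were called lower with upper-quartile scaling. Of 29 lysosome genes 22 were lower and 4 higher in fbf-2, and hlh-30 was lower, at 38.6 ± 3.53 CPM in fbf-2 and 65.8 ± 1.72 CPM in 3xlnc (log2 -0.87, adjusted p = 9.51e-06). Of the markers, 16 of 16 for sperm, 12 of 12 for muscle, 12 of 18 for intestine, 9 of 12 for hypodermis and 8 of 14 for neurons were lower in fbf-2 than in 3xlnc. Higher were 2 for intestine (mtl-1, log2 3.47, and mtl-2, log2 0.43, named after their values were seen), 1 for hypodermis and 2 for neurons. Germline markers went the other way, with 9 of 15 higher and 1 lower, or 6 higher and 3 lower with upper-quartile scaling, and 0 of 8 embryo markers changed. The part of the markers in the lipl values was not tested.

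Between fbf-1 worms and WT, the genotype and the RNA label (polyA RNA, total RNA) changed together and cannot be told apart. The lipl-1 gene was lower in fbf-1, at 14.7, 14.5 and 14.9 CPM, against 27.2, 23.4 and 26.8 CPM in WT, with no overlap (log2 -0.77, SE 0.0999, edgeR's quasi-likelihood test, adjusted p = 0.00351). The lipl-3 values were higher in every fbf-1 library, at 1.80, 1.61 and 1.48 CPM in fbf-1 and 0.662, 0.920 and 0.452 CPM in WT, but the difference did not pass (log2 1.26, SE 0.310, adjusted p = 0.0561), and it passed without WT replicate 1 (adjusted p = 0.0330) or 2 (adjusted p = 0.0349). For lipl-2 the log2 fold change was 0.38 (adjusted p = 0.145, and 0.0212 without WT replicate 1), for lipl-5 -0.15 (adjusted p = 0.492), and lipl-6 and lipl-7 did not pass. Of 6 tested members 1 was lower and 0 higher, where 2.69% of 13424 genes were lower and 2.12% higher in fbf-1. The lbp-8 gene was higher in fbf-1, at 1.36 ± 0.179 CPM against 0.307 ± 0.0486 CPM in WT (log2 2.16, adjusted p = 0.00607). This call held without any 1 library, with an adjusted p of up to 0.0490. The WT level rests on few counts, and lbp-8 passed the count filter through the fbf-1 libraries alone. The call is therefore tied to the filter, and the size of the difference is uncertain. Of 18 intestinal markers 1 was higher and 4 were lower in fbf-1, with 11 changed without WT replicate 1 and 2 without fbf-1 replicate 2 or 3. Of 15 sperm markers 2 were lower (6 changed without WT replicate 1, 0 without WT replicate 3), and 1 of 12 for hypodermis was lower. The part of the markers in the lipl values was not tested.

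Set in order of their means, the genotypes followed a different order for each of the abundant members. The fbf-1 3xlnc and fbf-1 libraries carry the polyA RNA label and the others the total RNA label, so a place in the order across these labels cannot be told apart from the label. For lipl-1 the order was WT, then fbf-1 and 3xlnc, whose ranges overlapped, then fbf-1 3xlnc and fbf-2, whose ranges also overlapped. For lipl-5 it was 3xlnc, fbf-1 3xlnc, WT, fbf-1 and fbf-2, and among neighbours WT and fbf-1 overlapped. For lipl-2 it was 3xlnc, fbf-1, WT, fbf-2 and fbf-1 3xlnc, and among neighbours only fbf-1 and WT did not overlap. The range of WT (up to 10.3 CPM) also overlapped that of 3xlnc (from 9.83 CPM), so the genotypes did not form separate groups. For lipl-7 the first 4 genotypes overlapped, at means of 18.1 to 18.6 CPM, and fbf-2 stood below them at 13.6 ± 1.53 CPM. For lipl-3, fbf-1 stood above the other genotypes, and for lipl-4 and lipl-6 all neighbours overlapped.

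The members lipl-5 and lipl-1, which had the widest spans between genotype means among members with a mean of at least 5 CPM, were set against each other within a library, where depth and scaling cancel. There were 83.5, 48.8 and 46.7 lipl-5 counts per lipl-1 count in fbf-1 3xlnc libraries, against 11.5 to 13.5 in fbf-1. In fbf-2 the ratio was 30.8 to 41.5 and in 3xlnc 24.3 to 35.5, against 7.38 to 8.29 in WT. The fbf-2 and 3xlnc ratios overlapped each other and lay above those of WT. The fbf-1 3xlnc and fbf-1 ratios were also above those of WT, but there genotype and RNA label cannot be told apart. Overlapping ratios were thus reached in fbf-2 with a lower level of both genes, and in 3xlnc with a higher lipl-5 level and a lower lipl-1 level than in WT.

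**Figure D5:**
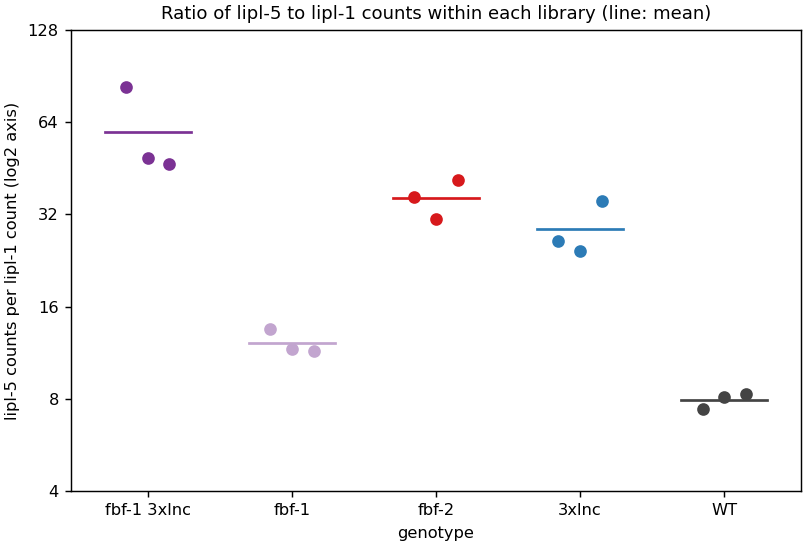
Number of lipl-5 counts per lipl-1 count (y axis, log2 axis) in each of the 15 libraries by genotype (x axis); points are libraries and lines are means of 3. The WT libraries, at 7.38 to 8.29, lie below all 12 mutant libraries, of which the fbf-1 3xlnc and fbf-1 libraries differ from WT in RNA label too.

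Genes with the most similar pattern were sought for the members with a mean of at least 5 CPM and a span of at least 1 (log2) between genotype means, which were lipl-1 and lipl-5. Likeness was the root mean square difference of the 5 centred genotype means of log2(CPM + 1), over 8649 other genes. The genotype means cross the polyA RNA and total RNA labels, so label and genotype cannot be told apart in a pattern. Nearest to lipl-1 were T16G1.7 (0.238), F42A10.7 (0.414) and the acid sphingomyelinase gene asm-3 (0.417), which gave way to ZK673.1 with a pseudocount of 0.25. T16G1.7, F42A10.7 and asm-3 were all lower in fbf-2 than in WT, as lipl-1 was. They were chosen for likeness to lipl-1, so this agreement follows from the choice. Yet the mean of asm-3 was higher in fbf-1 than in WT (75.7 against 64.8 CPM), where lipl-1 was lower. This asm-3 difference did not pass (log2 0.27, edgeR's quasi-likelihood test, adjusted p = 0.131). The fall of T16G1.7 in 3xlnc did not pass (log2 -0.43, edgeR's quasi-likelihood test, adjusted p = 0.205). The T16G1.7 gene had 3.28 CPM in fbf-1 3xlnc, 9.27 in fbf-1, 2.88 in fbf-2, 8.66 in 3xlnc and 11.6 in WT. Nearest to lipl-5 were the xanthine dehydrogenase gene xdh-1 (0.0967), T23B3.5 (0.0987) and the sperm chromatin gene spch-3 (0.102), which gave way to C44F1.1 with a pseudocount of 0.25. For xdh-1 the means were 27.5 CPM in fbf-1 3xlnc, 18.03 in fbf-1, 15.2 in fbf-2, 40.8 in 3xlnc and 23.6 in WT. It had the same order of genotypes as lipl-5, a likeness for which it was chosen.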

How the data were processed

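RNA of whole adult worms was sequenced after an mRNA library kit, per the labels' protocols, in 15 libraries. Per the submitters' processing notes, the tools were STAR 2.7.9a, featureCounts, Subread 2.0.1 and DESeq2 1.34.0, with genome build WBcel235. The sources used here do not give strand use or the treatment of multi-mapping reads. The authors deposited raw counts per gene in 3 tables, per the file headers, and a further 18 normalised columns were not used. The fbf-1 3xlnc columns match the group but no single sample, so their numbers only tell libraries apart.

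Levels are CPM of total counts (9068700 to 38453738 per library), and CPM per kilobase uses the exon union of WBcel235 annotation release 115. The libraries of each comparison were filtered with filterByExpr, TMM-scaled and tested by quasi-likelihood in edgeR 4.0.16 (R 4.3.3), with Benjamini-Hochberg adjustment over all genes tested and a threshold of 0.05. Fold changes are mutant over control, and fbf-2 over 3xlnc where both are mutants. The fits were also run on simulated counts with known changes. Those libraries were drawn independently, so that run cannot speak to the joint deviations of fbf-2 and WT libraries given below, nor to a deviant library. Alternatives tried were 2 other scalings (RLE, upper-quartile), no or a stricter count filter, DESeq2 1.42.0, all 15 libraries in 1 fit, a replicate block, each library left out, and, chosen after the data were seen, counts of list genes under these settings and the intestinal markers without yolk genes. Replicate libraries all differed by more than sampling noise.

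Same-numbered fbf-2 and WT libraries deviated together (correlations 0.655, 0.420 and 0.474 over 8653 genes), which meets the rule for pairing. In the other comparisons they did not. Between fbf-2 and WT libraries of unlike number the correlations ran from -0.614 to 0.402, the highest for fbf-2 replicate 3 with WT replicate 2. The main fit of fbf-2 against WT had no block, since the sample titles state no pairing. Its p-values, list counts and shares of all genes are those of the fit without a block unless the block is named.

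The 8 members, 7 pathway lists, 7 marker lists and tests were chosen with earlier results of these data known. Named genes are all lipl genes, up to 3 genes of each pathway list with the smallest adjusted p in a comparison among those called, and 3 genes nearest in pattern; others are named after their values were seen. Of the listed genes 7 are not used here because no row carries their name. Lists share some members, which are counted in each. Examples are elt-2 (regulators, intestine), vha-6 (v-ATPase, intestine) and lbp-8 (fasting response, regulators).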

Additional observations from a re-analysis of the deposited data

Results flagged for a closer look

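The effect of the 3 linc mutations on lipl-2 differed between backgrounds, by -1.00 on the log2 scale (SE 0.220, edgeR's quasi-likelihood interaction test, adjusted p = 0.0151). In fbf-1 worms the levels were 6.69 ± 1.29 CPM in fbf-1 3xlnc and 10.8 ± 0.327 CPM in fbf-1, and in WT worms they were 11.04 ± 1.13 CPM in 3xlnc and 8.61 ± 1.47 CPM in WT (SD, n = 3). The fbf-1 3xlnc and fbf-1 libraries are labelled polyA RNA and the 3xlnc and WT libraries total RNA, so the background and the RNA label cannot be told apart.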

How the results depend on the processing

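Of the single-gene lipl fold changes under other settings than a left-out library, 188 kept their direction and side of the threshold, 8 passed newly and 1 changed sign; the cause was not tested. The sign changes were lipl-7 in 3xlnc against WT (0.044 with upper-quartile scaling; -0.14 to 0.054 with 1 library left out, turned without WT replicate 1), lipl-7 in fbf-1 against WT (-0.040 to 0.14, turned without WT replicate 3), and, for the difference between backgrounds, lipl-7 (-0.019 to 0.19, turned without WT replicate 1) and lipl-3 (-0.54 to 0.16, turned without 3xlnc replicate 1 or WT replicate 3). None of these passed the threshold. The number of lipl genes with a different linc effect was 1, against 2 with no count filter (lipl-1 added, adjusted p = 0.0140), 2 with a mean of at least 50 counts and 2 with all 15 libraries (lipl-5 added, adjusted p = 0.0410 and 0.0408), and 3 with DESeq2 (lipl-1 and lipl-5, adjusted p = 0.0475 and 0.0346). In fbf-1 against WT it was 1, against 2 with no count filter, DESeq2 or all 15 libraries (lipl-3 added, adjusted p = 0.0174, 0.0475 and 0.0121). With 1 library left out, the number of lipl genes called ranged from 1 to 3 in fbf-2 against WT, 2 to 3 in 3xlnc against WT, 3 to 4 in fbf-1 3xlnc against fbf-1, 1 to 3 for the difference between backgrounds, 4 to 5 in fbf-2 against 3xlnc and 1 to 3 in fbf-1 against WT.

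Counts over all genes moved more. They ranged from 698 to 5003 in fbf-2 against WT, 395 to 4764 in 3xlnc against WT, 1140 to 2720 in fbf-1 3xlnc against fbf-1, 545 to 2763 for the difference and 193 to 2217 in fbf-1 against WT, with the highest of the 4 that include WT without WT replicate 1. With all 15 libraries they were 4530, 3330 and 1348 in the first 3, and 1433 in fbf-1 against WT, where no count filter gave 1052; a mean of at least 50 counts gave 1044 in 3xlnc against WT. The replicate block in fbf-2 against WT gave 4413, against 2095. The blocked fits changed no call of a lipl gene in the 4 comparisons where they could be made; no paired analysis was possible for fbf-1 3xlnc against fbf-1 and for the difference because a number in a fbf-1 3xlnc column fits different samples by title and by library name, and so identifies none. Exon union and longest transcript gave the same lengths. A pseudocount of 0.25 kept 2 of 3 nearest genes for lipl-1 (asm-3 dropped out) and for lipl-5 (spch-3 dropped out). Depth limits lipl-3, lipl-4, lipl-6 and lipl-8, which had at most 57 counts in a library.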
